A study of Mus musculus with 148 samples.

Results

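The CD8 Lag3 cells were T cells that the study's authors annotated as dysfunctional CD8 cells in a single-cell atlas of breast cancer lung metastasis in mice. Their wells were taken by the deposited cell annotation, as T cell labels that held both CD8 and Lag3. The rule found 347 cells among 24020 annotated cells, 6846 T cells and 2711 CD8 T cells. The other CD8 cells were labelled Gzmk (1612 cells), Gzma (375) and Dapl1 (377). A CD8 Lag3 cell was found in 52 of 63 mouse and tissue samples and in all 27 mice, and no well identifier occurred more than 1 time among them.

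Female PA-GFP C57BL/6 mice, whose cells carry a green fluorescent protein that lights up only after photoactivation, received EO771-tdTomato breast cancer cells in the mammary gland at 8 weeks of age. The tumors were resected 3 weeks later and the lungs were followed by CT for metastases. Single CD31-negative cells were sorted into plates by CD45 or by photoactivated GFP, and their RNA was counted as unique molecular identifiers (UMIs, 1 for each captured molecule). The study asked how immune cells differ between lung before and after metastasis, primary tumor, and regions of a metastasis. Lung came from control mice without tumors (the Normal status), from tumor-bearing mice before resection (Pre-MET), from mice without relapse (relapse-free) and from areas away from a metastasis (distal normal tissue). The other tissues were the primary tumor, a whole metastasis section (MET), the photoactivated metastasis core and its invasive margin. All mice shared the PA-GFP strain. EO771 is 1 transplanted cell line, and 1 mouse could give several tissues, so samples of different tissues were not all independent. The core of mouse 17 was sorted on both photoactivation and CD45, whereas the other cores and margins were sorted on photoactivation without CD45.

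CD8 T cells kill infected or malignant cells by releasing granzymes and perforin after the T cell receptor recognizes its antigen. Under lasting antigen exposure they can enter a dysfunctional, or exhausted, state that is known for inhibitory receptors such as PD-1 (Pdcd1) and LAG-3 (Lag3), for the transcription factor TOX, and for loss of the memory factor TCF-1 (Tcf7). Cells in this state may still make granzymes and the chemokines CCL3 and CCL4.

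The label was checked against its markers Lag3, Pdcd1 and Gzmb over pooled tissues. In the 4 tissues with a lesion (primary tumor, metastasis section, core and invasive margin), 293 cells held 114 Lag3 UMIs, which gave 213 CPM (UMIs of a gene scaled to a fixed library total; exact 95% Poisson interval 176 to 256). In the 4 lung tissues without a lesion, the 54 cells with the same label held 0 Lag3 UMIs in 150164, which allows up to 24.6 CPM by the same interval. No Lag3 UMI was thus seen under this label outside the lesion tissues, and the 54 cells there are called CD8 Lag3 by their label alone. Other CD8 cells were at 18.0 CPM of Lag3 in the lesion tissues and at 3.29 CPM in the other lungs. All such intervals cover counting error only.

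Pdcd1, the inhibitory receptor PD-1, was at 848 CPM (771 to 929) in the lesion tissues and at 127 CPM (76.2 to 198) in the 4 lung tissues without a lesion. Gzmb, the apoptosis-inducing granzyme B, was at 1166 CPM (1076 to 1261) and 333 CPM (247 to 439). Both markers were thus present under this label in the pooled lung without a lesion, at lower levels. That pool held 29 cells of relapse-free lung, 18 of distal normal tissue, 6 of control lung and 1 of Pre-MET lung. The distal normal tissue of mouse 36 alone gave 9 of its cells and 57504 of its UMIs, with 9 Pdcd1 and 25 Gzmb UMIs. The pooled levels thus say little of control or Pre-MET lung. Other CD8 cells of the 4 lung tissues were at 25.2 CPM of Pdcd1 (18.5 to 33.7) and at 459 CPM of Gzmb (428 to 491), so that Gzmb was not above its level in other CD8 cells there. In the lesion tissues other CD8 cells were at 731 CPM of Gzmb (691 to 772). Cd8a, a chain of the CD8 co-receptor, was found in 61.4% of the lesion cells and 44.4% of the others. The T cell identity list was detected in all 12 of its members and summed to between 6837 and 19237 CPM in the 23 samples with 5 or more cells.

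Among all labels of the atlas, CD8 Lag3 cells had the highest mean Lag3 level over samples, at 231 CPM ± 448 (SD, n = 23). Plasmacytoid dendritic cells followed at 173 CPM ± 172 (SD, n = 3) and regulatory T cells at 51.0 CPM ± 88.2 (SD, n = 11). The SD of the CD8 Lag3 cells exceeded their mean, so the first 2 places were not separated beyond their spread. Without the core of mouse 34 the mean was 144 CPM ± 170 (SD, n = 22), below that of the plasmacytoid dendritic cells. Pdcd1 was at 543 CPM ± 540 (SD, n = 23) in CD8 Lag3 cells and at 432 CPM ± 419 (SD, n = 11) in regulatory T cells, which again overlapped. For Gzmb the order was different, with the NK Ncr1 cells at 1597 CPM ± 854 (SD, n = 56), CD8 Gzma at 1360 CPM ± 873 (SD, n = 16) and CD8 Lag3 at 850 CPM ± 991 (SD, n = 23). Since the labels came from clustering the same cells, these levels are a description with no test.

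A UMI of Lag3 was seen in 9.80% of CD8 Lag3 cells when each cell was thinned to 500 UMIs, compared with 0.682% of CD8 Gzmk cells. For Pdcd1 the shares were 19.6% and 2.79%, and for Gzmb 22.2% and 11.8%. In B cells, which should lack these genes, unthinned shares were 0.0948% for Lag3, 0.474% for Pdcd1 and 1.04% for Gzmb, at a median of 1001 UMIs per cell. The median CD8 Lag3 cell held 1200 UMIs from 582 genes, and the median CD8 Gzmk cell 1010.5 UMIs. The median share of mitochondrial UMIs was 2.18% in CD8 Lag3 cells and 3.16% in CD8 Gzmk cells.

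To show the sequence next to the genes the description turns on, the 250 bases before the annotated start are given for Pdcd1, Gzmb and Tnfrsf9, read from RefSeq (GRCm38.p6, on the strand of the gene, 5′ to 3′). The table held such an entry for 17 of 26 named genes. Capitals mark matches, on either strand, to motifs of factors downstream of the T cell receptor, namely AP-1 (TGANTCA), NFAT (TGGAAA) and NF-kB (GGGA, any 4 bases, then CC). Pdcd1 is at chr1:94038305-94052553 on the minus strand, and its window, chr1:94052554-94052803, held none of the 3 motifs.
Pdcd1: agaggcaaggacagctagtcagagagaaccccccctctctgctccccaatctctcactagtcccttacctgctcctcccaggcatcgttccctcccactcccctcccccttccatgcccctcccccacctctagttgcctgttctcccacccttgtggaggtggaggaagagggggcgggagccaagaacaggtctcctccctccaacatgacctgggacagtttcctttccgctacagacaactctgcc
Gzmb is at chr14:56258838-56262260 on the minus strand, and its window, chr14:56262335-56262584, held 1 AP-1 match.
Gzmb: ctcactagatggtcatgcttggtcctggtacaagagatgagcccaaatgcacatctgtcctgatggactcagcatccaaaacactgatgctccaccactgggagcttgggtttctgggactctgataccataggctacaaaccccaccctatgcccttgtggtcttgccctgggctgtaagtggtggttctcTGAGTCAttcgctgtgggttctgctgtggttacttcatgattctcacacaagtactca
Tnfrsf9, which encodes the costimulatory receptor 4-1BB, is at chr4:150914562-150946102 on the plus strand. The window before its first start in the table, chr4:150919905-150920154, lay inside the longer gene span and held 1 NFAT match. The window of its other start, chr4:150927749-150927998, overlapped an exon of the gene and held 1 AP-1 and 1 NF-kB match, and is not shown. Gene spans are from the GENCODE annotation of the same build, and none of the 3 windows shown overlapped an annotated exon.
Tnfrsf9: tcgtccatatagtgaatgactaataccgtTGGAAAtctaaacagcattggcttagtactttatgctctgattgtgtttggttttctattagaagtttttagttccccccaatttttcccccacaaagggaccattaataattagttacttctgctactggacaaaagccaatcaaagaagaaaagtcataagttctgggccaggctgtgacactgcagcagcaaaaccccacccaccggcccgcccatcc
Of 32851 promoter windows of the same length, 6.75% held the AP-1 letters, 18.6% the NFAT letters and 17.6% the NF-kB letters, so a match in 1 window is a description of the sequence and no sign of binding.

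**Figure D1:**
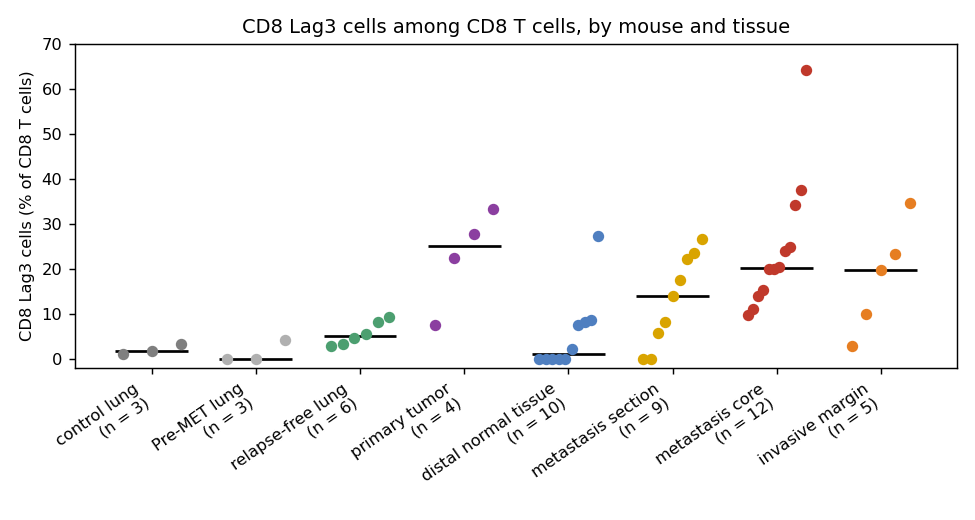
Percentage of CD8 T cells labelled CD8 Lag3 (y axis, linear) in each mouse and tissue with 10 or more CD8 T cells. Points are samples and lines are medians, which ran from 0% in Pre-MET lung to 25.2% in primary tumors. The highest core, at 64.2%, was that of mouse 31.

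CD8 Lag3 cells made up 26.4% of the pooled CD8 T cells in primary tumors, 24.9% in metastasis cores, 14.8% in metastasis sections and 14.5% in invasive margins. In the lungs without a lesion they made up 2.17% in control lung, 1.52% in Pre-MET lung, 4.30% in relapse-free lung and 6.14% in distal normal tissue. These shares follow the deposited label, and in the latter 4 tissues that label came without Lag3 UMIs, so they are no share of Lag3-expressing cells. The samples were sorted by gates that differed between tissues, whose part in the shares was not tested.

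Across samples with 10 or more CD8 T cells, primary tumors had a share of 22.8% ± 11.0 (SD, n = 4) and cores of 24.7% ± 15.0 (SD, n = 12). The difference of 1.82 percentage points was smaller than the spread of either group (p = 0.832, two-sided exact permutation test, adjusted p = 0.832 over 4 comparisons). As a percentage of all T cells, primary tumors were at 6.46% and cores at 15.1% (exact permutation test, p = 0.153, adjusted p = 0.204). With cells of at least 1000 UMIs the shares of CD8 T cells were 22.7% (n = 4) and 38.4% (n = 6; exact permutation test, p = 0.405, adjusted p = 0.540). The size of the difference thus depended on the measure. In the 1 sequencing batch that held both tissues, the primary tumor was at 27.8% and the 2 cores were at 15.4% and 34.3%. The other 3 primary tumors were sequenced in a batch with no core.

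Within metastatic lungs, the share was 5.44% ± 8.56 (SD, n = 10) in distal normal tissue and 13.1% ± 10.1 (SD, n = 9) in metastasis sections. The two-sided exact permutation test gave p = 0.0904 and adjusted p = 0.181. In 6 mice with both tissues the section was higher in 4, by 9.67 percentage points on average over the 6 (exact sign-flip permutation test within mice, p = 0.125, where the smallest possible was 0.0625, since mouse 28 was at 0% in both tissues). Mouse 27 was at 2.33% in the distal tissue and 22.2% in the section, and mouse 36 at 8.82% and 8.20%. The distal tissue of mouse 26 was at 27.3% from 3 of 11 cells. Without it, an omission chosen after seeing the data, the distal mean was 3.02% ± 4.03 (SD, n = 9) and the difference 10.1 percentage points (exact permutation test, p = 0.0165, adjusted p = 0.0658). The section of mouse 26 was also high, at 77.8%, but held only 9 CD8 T cells and was outside this comparison. The omission thus took out a high distal value of a mouse whose section was not counted. Of the 3 sequencing batches with both tissues in several samples, the first held 4 sections (5.88% to 28.0%) and 2 distal tissues (0% and 8.82%). The next held 2 sections (0% and 26.7%) and 2 distal tissues (0% and 8.33%). In the last, the 2 sections (0% and 22.2%) lay within the range of the 5 distal tissues (0% to 27.3%). With samples of 5 or more CD8 T cells the unpaired difference was 13.5 percentage points (permutation test with 100000 resamples, p = 0.0185, adjusted p = 0.0740 over the 4 comparisons). This minimum brought in the section of mouse 26, the highest of all, with 7 CD8 Lag3 cells of 9. The section mean was then 19.7% ± 19.5 (SD, n = 13).

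The core was compared with the invasive margin, at 24.7% ± 15.0 (SD, n = 12) and 18.1% ± 12.2 (SD, n = 5), and the groups overlapped (exact permutation test, two-sided, p = 0.422, adjusted p = 0.563). In the 4 mice with both, the core was higher in 3. Mouse 31 had the widest gap, with 64.2% in the core and 23.3% in the margin, while mouse 28 had 9.88% and 10.0%. In the sequencing batch with 3 cores and 2 margins, the cores ran from 11.1% to 64.2% and the margins from 23.3% to 34.6%. The paired mean difference was -16.6 percentage points, margin minus core (exact sign-flip permutation test within mice, p = 0.25), and 4 mice could not give a p below 0.125. Relapse-free lungs were at 5.75% ± 2.63 (SD, n = 6) and control lungs at 2.17% ± 1.10 (SD, n = 3), with p = 0.0714 and adjusted p = 0.181 by the two-sided exact permutation test. Control and relapse-free lungs shared no sequencing batch, so batch and tissue cannot be told apart there.

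**Figure D2:**
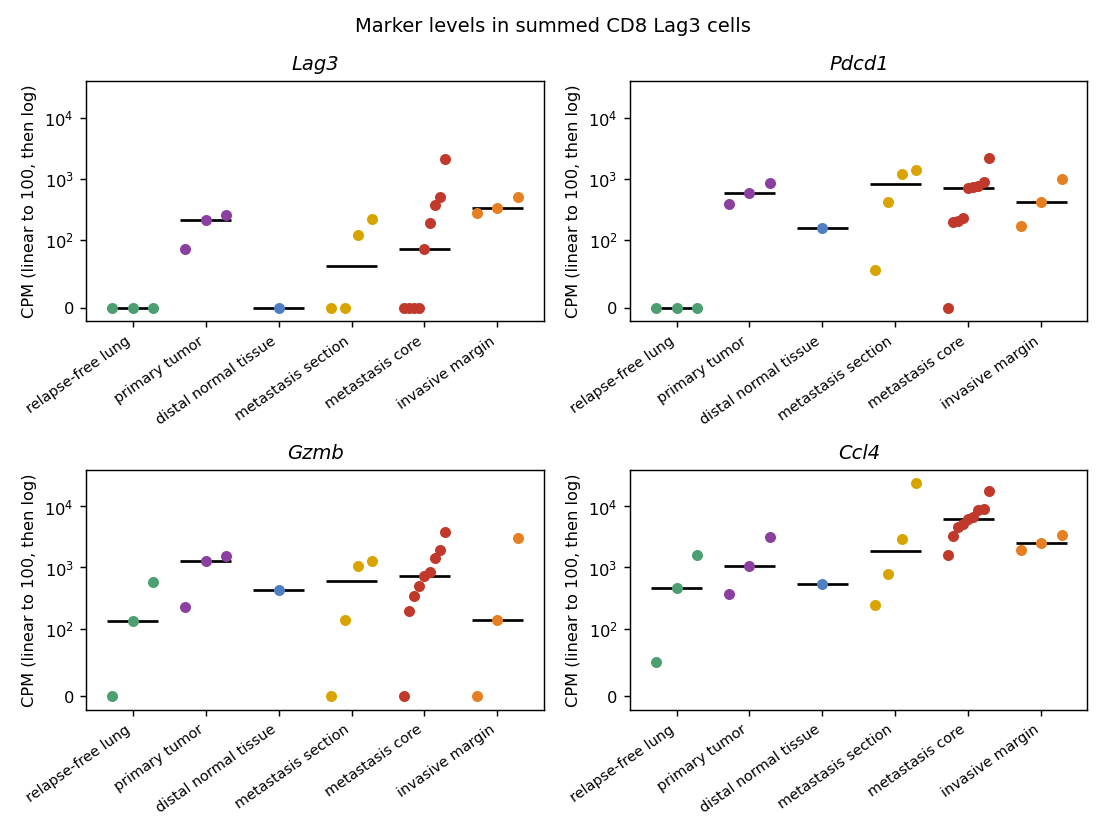
CPM of Lag3, Pdcd1, Gzmb and Ccl4 in summed CD8 Lag3 cells (y axis linear to 100 and logarithmic above), with 1 point for each of the 23 samples of 5 or more cells and a line at each median. Lag3 was at 0 in all 3 relapse-free lungs, in the distal normal tissue, in 2 of 4 sections and in 4 of 9 cores.

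For expression, CD8 Lag3 cells were summed for each mouse and tissue with 5 or more cells. This gave 23 sums, of 3 relapse-free lungs, 3 primary tumors, 1 distal normal tissue, 4 sections, 9 cores and 3 margins. They held between 5143 and 92193 UMIs from 5 to 58 cells, so that a gene at 100 CPM was expected at or below 1 UMI in the shallowest sums.

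Lag3 was at 212, 258 and 86.8 CPM in the primary tumors of mice 8, 10 and 38, and at 504, 273 and 336 CPM in the margins of mice 31, 33 and 36. In the cores it was at 86.8 CPM in mouse 17, 186 in mouse 27, 504 in mouse 31, 2139 in mouse 34 and 376 in mouse 36, and at 0 in mice 25, 26, 28 and 30. The sections were at 222 CPM in mouse 31, 122 in mouse 36 and 0 in mice 26 and 32. All summed primary tumors and margins (3 of 4 and 3 of 7 samples) thus had Lag3. The summed cores ran from 0 to the highest value, which came from 11 UMIs in 7 cells.

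Pdcd1 was above 0 in all 3 primary tumors, at 848, 590 and 390 CPM (mice 8, 10 and 38), and at 0 in all 3 relapse-free sums. The cells of relapse-free mice outside these sums held it, since all 29 relapse-free cells together had 6 Pdcd1 UMIs in 2 cells (81.5 CPM, exact Poisson interval 29.9 to 177). Cores ran from 0 in mouse 27 to 2167 CPM in mouse 36, with a mean of 653 CPM ± 650 (SD, n = 9). Relapse-free lungs lay at the bottom of the range of the cores, which they met at 0. The relapse-free sums shared no sequencing batch with the core sums, so batch and tissue cannot be told apart between them. The two-sided exact permutation test of these sums gave p = 0.118 and adjusted p = 0.991 over the 12 tests of the 3 markers in 4 tissue contrasts. Without the core of mouse 36 the difference was -463 CPM, relapse-free minus core (exact permutation test, p = 0.0485, not adjusted), so that core decided the unadjusted call.

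Gzmb was at 1272, 221 and 1529 CPM in the primary tumors and at 0, 137 and 2996 CPM in the margins of mice 31, 33 and 36. Its cores ran from 0 in mouse 27 to 3795 CPM in mouse 28. The sections lay between 0 in mouse 36 and 1284 CPM in mouse 32, so that the ranges of all 4 lesion tissues overlapped. None of the 12 marker tests passed after adjustment, and the smallest unadjusted exact permutation p was 0.118.

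**Figure D3:**
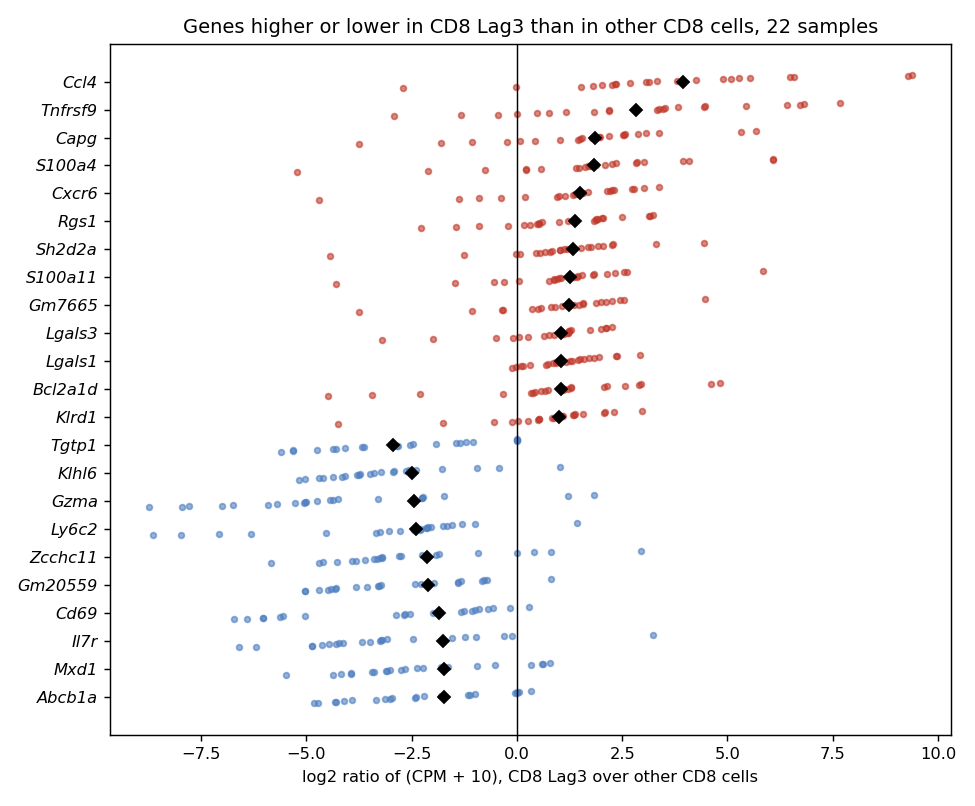
log2 ratio of (CPM + 10) in CD8 Lag3 over other CD8 cells of the same sample (x axis) for 13 higher and 10 lower genes, with 1 dot for each of 22 samples and a diamond for the ratio of mean levels. Ccl4 was higher in 20 of 22 samples and Ly6c2 lower in 21.

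CD8 Lag3 cells were next set beside the other CD8 cells of the same 22 samples, gene by gene. Ccl4, a chemokine made by activated T cells, was at a mean of 3729 CPM in CD8 Lag3 cells and 235 CPM in the others. Tnfrsf9 was at 672 and 85.8 CPM. On the low side stood Ly6c2, a surface protein of activated and memory cells, at 459 and 2465 CPM, and Il7r, the interleukin 7 receptor of naive and memory cells, at 98.9 and 360 CPM. A gene was counted as higher or lower where the log2 ratio of mean (CPM + 10) was at least 1 in size and at least 80% of samples went the same way. Of 7391 genes with 50 or more UMIs, 13 (0.176%) counted as higher and 41 (0.555%) as lower. The labels were made from the same cells, so these counts carry no test. The sum of the other CD8 cells was the deeper one in 21 of 22 samples, and with both sums of each sample thinned to the same UMIs 7 genes counted as higher and 7 as lower, all of them among those above. In the 18 lesion samples alone, 16 counted as higher and 39 as lower, of which 11 and 23 were shared with the counts over all tissues.

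The 7 higher genes that also counted after thinning were Ccl4, Tnfrsf9, S100a4, Rgs1, Sh2d2a, S100a11 and Lgals1. Lgals1, the secreted lectin galectin-1, was at 5289 CPM against 2564 CPM and higher in 20 of 22 samples (log2 ratio 1.04). S100a4, a calcium-binding protein of motile and effector cells, was at 1123 against 306 CPM (log2 ratio 1.84, higher in 19). Rgs1, a regulator of G protein signaling, was at 907 against 341 CPM (1.39, higher in 18), and Sh2d2a, a T cell adaptor protein, was at 892 against 350 CPM (1.33, higher in 19). All 4 were thus detected well above the pseudocount in both populations. In the 7 samples with 10 or more cells of each population, the log2 ratios of S100a4 (1.01, higher in 5 samples), Rgs1 (0.69) and Lgals1 (0.78) were smaller and these 3 did not meet the count.

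The remaining higher genes were Capg, an actin-capping protein (571 against 150 CPM), Cxcr6, a chemokine receptor of tissue-resident T cells (671 against 231 CPM), Lgals3, the lectin galectin-3 (696 against 330 CPM), Bcl2a1d, a survival gene of the Bcl2 family (191 against 87.9 CPM), Klrd1, which encodes the receptor chain CD94 (932 against 461 CPM), and Gm7665, a processed pseudogene (326 against 134 CPM). Their log2 ratios lay between 1.00 and 1.86. Whether reads of Gm7665 came from another gene was not tested. After thinning, none of these 6 met the count, although their log2 ratios were close to before, such as 1.68 for Capg, 1.35 for Cxcr6 and 1.35 for Gm7665. In the samples with 10 or more cells of each population, Cxcr6 (0.77, higher in 5 of 7 samples), Lgals3 (0.82) and Klrd1 (0.88) also missed the count.

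Among the lower genes, Gzma, which encodes granzyme A, was at 288 against 1611 CPM (log2 ratio -2.44, lower in 20 of 22 samples). Against CD8 Gzmk cells alone 12 genes counted as higher and 27 as lower, of which 9 and 23 were shared with the counts against all other CD8 cells. Capg, Bcl2a1d, Klrd1, Gm7665, Gzma, Tgtp1, Mxd1, Abcb1a, Ccr7, Foxp1 and Ier2 were among the genes that did not meet the count there. The Gzma log2 ratio of mean levels was 0.11 against CD8 Gzmk cells, although it was lower in 15 samples and higher in 6. Against all other CD8 cells, Ly6c2 had a log2 ratio of -2.40 and Il7r of -1.76, both lower in 21 samples. Cd69, an early activation and retention marker, was at 182 against 682 CPM (-1.85, lower in 21). Tgtp1, an interferon-induced GTPase, was at 9.31 against 140 CPM (-2.95, lower in 18). Gzma, Ly6c2, Cd69, Il7r and Bcl2 were also lower after thinning, whereas Tgtp1, Klhl6, Zcchc11, Gm20559, Mxd1 and Abcb1a did not meet the count after thinning, with log2 ratios between -3.29 for Tgtp1 and -1.67 for Mxd1.

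Chemokine levels in CD8 Lag3 cells varied widely, both within and between tissues. Ccl4 ran from 243 to 24333 CPM in 19 lesion sums, with a median of 3224 CPM, and was at 1591, 457 and 50.2 CPM in the relapse-free lungs of mice 6, 7 and 11 and at 539 CPM in the distal normal tissue of mouse 36. In the cores it was lowest in mouse 17, at 1587 CPM, and highest in mouse 28, at 17794 CPM. Primary tumors were at 1060, 369 and 3156 CPM in mice 8, 10 and 38, within the range of the sections. Lesion and other sums overlapped, and in control lung, which gave no sum, 72 Ccl4 UMIs came from 1 cell. Ccl3, which is made with Ccl4 by activated T cells, was at 698 against 32.6 CPM in other CD8 cells and higher in 17 of 22 samples, which fell short of the count. It was at 0 in the 4 sums of lung without a lesion and above 0 in 18 of 19 lesion sums. The relapse-free sums among the former shared no sequencing batch with a lesion sum.

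Ccl1 and Xcl1 came from few cells. Ccl1 had 520 UMIs in 28 cells, 67.1% of them in 5 cells, and reached 17835 CPM in the section of mouse 26 while 12 of 19 lesion sums held none. Xcl1, which attracts cross-presenting dendritic cells, had 733 UMIs in 53 cells, and 55.8% of these were in 5 cells. Gzmf was similar, with 114 UMIs in 5 cells, whereas Nkg7, a granule protein of cytotoxic cells, had 5610 UMIs in 345 of the 347 cells. Nkg7 ran from 3948 CPM in the distal normal tissue of mouse 36 to 13589 CPM in the core of mouse 27. It was higher than in other CD8 cells in 21 of 22 samples, by a log2 ratio of 0.66.

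**Figure D4:**
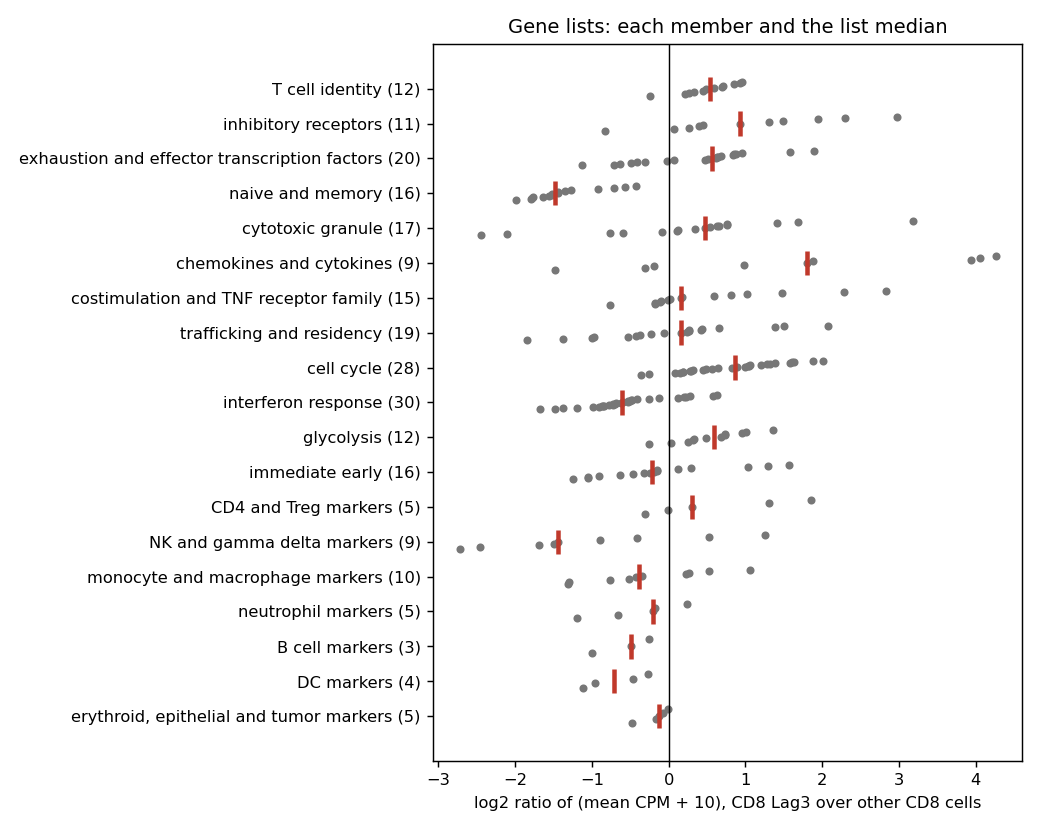
log2 ratio of (mean CPM + 10) in CD8 Lag3 over other CD8 cells (x axis) for the members of 19 gene lists with 50 or more UMIs (grey dots, their number in parentheses) and the list median (red line). The median was 0.92 for inhibitory receptors and -1.48 for naive and memory genes.

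Of 14 inhibitory receptor genes, 11 had 50 or more UMIs and none counted as higher or lower, while 5 of the 11 had a log2 ratio of at least 1 (5.14% of all genes did). The list median was 0.92, beside -0.05 over all genes. Lag3 itself was at 241 against 22 CPM (log2 ratio 2.97) and higher in 13 of 22 samples (without the core of mouse 34, 151 against 23.0 CPM and 2.28), Pdcd1 at 549 against 104 CPM (2.29) and higher in 17, Havcr2, which encodes TIM-3, at 138 against 28.5 CPM (1.94), and Tigit at 267 against 88.5 CPM (1.49, higher in 16). Since 2 of these genes are the markers of the label, their ratios repeat what the label says.

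By sample, the summed inhibitory receptors ran from 1036 to 5086 CPM in the 19 lesion sums and from 457 to 817 CPM in the 4 sums without a lesion, so the ranges did not overlap. The sums in other CD8 cells ran from 0 to 2082 CPM (median 793) and from 79.6 to 1414 CPM (median 535). All 4 sums without a lesion, and some lesion sums, lay inside the range of other CD8 cells for this list. The relapse-free sums, of mice 6, 7 and 11, shared no sequencing batch with a lesion sum, so batch and tissue cannot be told apart for them. The list also holds the label's own markers Lag3 and Pdcd1, both at 0 in the relapse-free sums. At 500 UMIs per cell, 62.5% of the 293 lesion cells had a UMI of the list, compared with 27.8% of the 54 cells elsewhere, 27.2% of other CD8 cells in lesions and 20.1% of other CD8 cells elsewhere. These shares are over cells and describe the labelled cells, with no test.

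Of the exhaustion and effector transcription factors, 20 of 21 had enough UMIs, none counted in either direction and the median log2 ratio was 0.56. Tox was at 196 against 45.4 CPM (log2 ratio 1.90), and Prdm1, which encodes the effector factor BLIMP-1, had a log2 ratio of 1.58. Tox was at 707, 406 and 152 CPM in the primary tumors of mice 8, 10 and 38, at 0 in all 3 relapse-free lungs and at 0 in 3 of 9 cores. Tox was thus detected in every summed primary tumor and margin (3 of 4 and 3 of 7 samples gave a sum), and in some summed cores and sections only. Sums held as few as 5143 UMIs, so a 0 in a shallow sum does not show absence.

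The naive and memory list moved the other way. Of 16 members measured, 4 counted as lower (Bcl2, Ccr7, Foxp1 and Il7r), where 0.555% of all genes did, and none counted as higher. A log2 ratio of -1 or below was seen for 12 of them, beside 8.24% of all genes. Tcf7 was at 70.4 against 209 CPM (-1.45, lower in 17 of 22 samples), and S1pr1 and Klf2, both involved in recirculation, had log2 ratios of -1.56 and -1.99. Il7r was at 0 in 10 of 19 lesion sums and at most 729 CPM, in the section of mouse 36. In thinned cells, 22.9% of lesion CD8 Lag3 cells and 38.9% of those elsewhere had a UMI of this list, compared with 58.4% and 59.2% of other CD8 cells.

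The cytotoxic granule list was not uniformly shifted, with a median log2 ratio of 0.47 over 17 members, 3 of them at 1 or above and 2 at -1 or below, and Gzma the 1 gene counted, as lower (0.555% of all genes were). Gzmb was at 882 against 695 CPM (0.34) and higher in 13 of 22 samples, and Prf1, which encodes perforin, at 396 against 142 CPM (1.42). Gzmb, although 1 of the markers given for the label, thus did not count as higher. The costimulation list had a median of 0.16 over 15 members, beside -0.05 over all genes. Of these, 4 were at 1 or above (5.14% of all genes were), among them Tnfrsf4 (2.29) and Icos (1.48), and Tnfrsf9 alone counted as higher (0.176% of all genes did).

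Cell cycle genes had a median log2 ratio of 0.86 over 28 members, of which 12 were at 1 or above, where 5.14% of all genes were, and none was counted. Top2a and Mki67, which mark dividing cells, had log2 ratios of 1.58 and 1.05. The summed list ran from 848 to 8399 CPM (median 3207) in CD8 Lag3 cells and from 647 to 4259 CPM (median 1722) in other CD8 cells. At 500 UMIs, 3 or more cell cycle UMIs were found in 19.8% of lesion CD8 Lag3 cells and in 24.1% of those elsewhere, compared with 9.12% and 6.93% of other CD8 cells. In lesions, 13% of CD8 Lag3 cells had both 3 or more cell cycle UMIs and an inhibitory receptor UMI, and elsewhere 5.56% had.

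**Figure D5:**
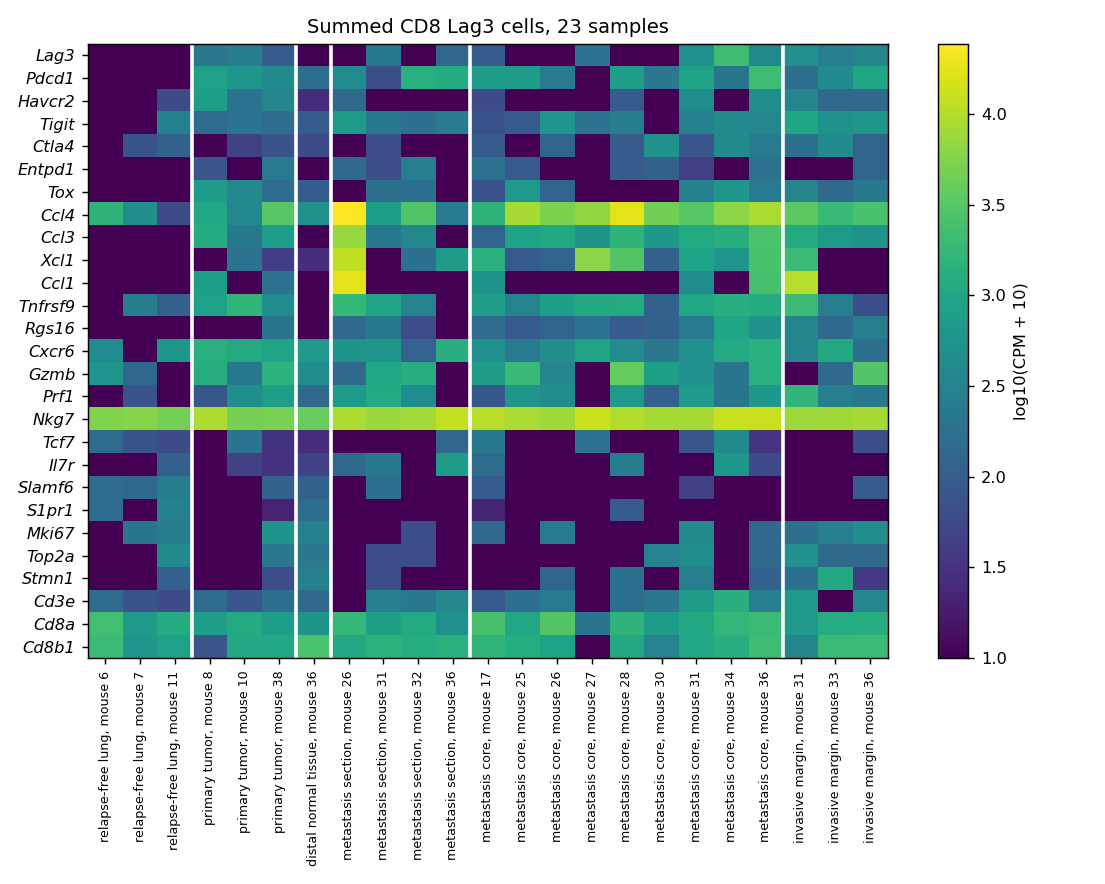
log10(CPM + 10) of 27 genes (rows) in the 23 sums of CD8 Lag3 cells (columns, by tissue and mouse). Nkg7 was high in every sum, while Lag3, Pdcd1, Tox and Ccl3 were at 0 in the 3 relapse-free lungs.

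The interferon response list had a median log2 ratio of -0.61 over 30 members, of which 4 were at -1 or below, where 8.24% of all genes were, and none at 1 or above. Ifit3 alone counted as lower (0.555% of all genes did) and none as higher. Glycolysis genes had a median of 0.59 over 12 members, with 2 at 1 or above and none counted. Trafficking genes had a median of 0.15 over 19 members, with 3 at 1 or above and 2 at -1 or below. Cxcr6 and Rgs1 of that list counted as higher and Cd69 as lower, where 0.176% and 0.555% of all genes did. Immediate early genes had a median of -0.22 over 16 members, with 3 at 1 or above, 3 at -1 or below and Ier2 counted as lower. The chemokine and cytokine list had a median of 1.80 over 9 members, with 5 at 1 or above (5.14% of all genes were) and 1 at -1 or below. Ccl4 alone was counted, and Ccl5 was at 12134 against 15052 CPM (-0.31).

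Markers of other cell types were read as lists as well. The CD4 and regulatory T cell list had a median of 0.30 over 5 members, with Capg, which is on that list, counted as higher (0.176% of all genes were). Foxp3 was at 7 UMIs in 3 cells and Cd4 at 35 UMIs in 16 cells. Summed over all cells, Foxp3 was at 10.2 CPM in CD8 Lag3 and 3.95 CPM in other CD8 cells, and Cd4 at 51.1 and 35.0 CPM. In these sums every member of the list was higher in CD8 Lag3 cells. The NK and gamma delta list had a median of -1.44 with 2 of 9 counted as lower, where 0.555% of all genes were. Of its members, 5 were at -1 or below and 1 at 1 or above (8.24% and 5.14% of all genes were). Summed over all cells, the gamma delta gene Tcrg-C2 was at 330 CPM in CD8 Lag3 and 152 CPM in other CD8 cells, and the whole list at 1186 and 1811 CPM. The monocyte and macrophage list had a median of -0.39 over 10 members, with Lgals3 counted as higher. Summed over all cells, monocyte and macrophage markers were at 1688 CPM in CD8 Lag3 and 1630 CPM in other CD8 cells, neutrophil markers at 586 and 1120 CPM, CD4 and regulatory T cell markers at 866 and 290 CPM, and B cell markers at 285 and 347 CPM, with the B cell marker Ms4a1 at 0. The part of such RNA in the results was not tested.

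Tissues were then compared within the CD8 Lag3 cells by edgeR's quasi-likelihood test on 22 sums, each against the core. Primary tumors differed from cores in 3 of 427 genes tested (0.703%), all higher. Tmsb10, which encodes the actin-binding thymosin beta 10, was at 2826, 5200 and 4957 CPM in the primary tumors of mice 8, 10 and 38 and between 759 and 2279 CPM in the 9 cores. The groups did not overlap. In the 1 sequencing batch with sums of both tissues, the primary tumor of mouse 8 and the core of mouse 36 were at 2826 and 1049 CPM of Tmsb10, and at 4239 and 8849 CPM of Gm42418. The primary tumors of mice 10 and 38 were in a batch with no core, so batch and tissue cannot be told apart for them, and batch was no term of the fit. The log2 fold change of Tmsb10 was 1.68 (SE 0.39, adjusted p = 0.0269). Gm3788 rose by 1.80 (SE 0.42, adjusted p = 0.0269), but this processed pseudogene at chr3:86672033-86672168 shared 82.1% of the 25-base words of its transcript with Tmsb10 (chr6:72957347-72958748), so the reads of the pair cannot be told apart with certainty. Gm42418, a non-coding RNA locus at chr17:39846958-39848788, rose by 2.31 (SE 0.54, adjusted p = 0.0269), with 44256 CPM in the primary tumor of mouse 10 against 4239 and 8515 CPM in the other 2. Without that primary tumor 0 genes were called, with 0.62 for Gm42418 and 1.46 for Tmsb10. Without the primary tumor of mouse 38 the 3 genes called were Gm42418, Gzma and Ubash3b. The edgeR call of Tmsb10 was then lost (adjusted p = 0.127), as it was with no filter on low counts (adjusted p = 0.120). Its log2 fold change stayed near the first, at 1.60 and 1.90. Without the core of mouse 36 the count was 1 and without that of mouse 17 it was 0. Xcl1 was at 0, 184 and 32.5 CPM in the primary tumors and between 81.8 and 6329 CPM in the cores, with a log2 fold change of -4.24 and adjusted p = 0.58. It was called as lower in primary tumors in 3 other settings, with no filter (-4.10), with 10 or more cells per sum, which left 1 primary tumor (-5.20), and with cells of at least 1000 UMIs (-4.89). Xcl1 was also called as lower than in the core in relapse-free lung in 3 alternative settings, in the margin in 2 and in the section in 1, so these calls were not limited to primary tumors.

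No gene was called in the invasive margin, the section or the relapse-free lung against the core (0.0% of 427 in each, edgeR), with 31, 15 and 46 genes at an unadjusted p under 0.05. DESeq2 called 5, 0 and 5 genes in these contrasts. In the margin the 5 were AY036118, Gm14173, Gm42418, Gm9794 and Mir682, and in relapse-free lung Ccl3, Ccl4, Gm13339, Pdcd1 and Tpm4, all named after their values were seen. Lag3 had too few UMIs to pass the filter of these tests. In the edgeR fit, Pdcd1 and Ccl3 both had adjusted p = 0.0642 and Ccl4 had adjusted p = 0.0997 with a log2 fold change of -3.58 (SE 1.05). Pdcd1 and Ccl3 were at 0 in all 3 relapse-free sums, so no fold is given for them. Gzmb had adjusted p = 0.36 in the same contrast, and was called as lower with cells of at least 1000 UMIs (edgeR, adjusted p = 0.0108). Ccl3 and Ccl4 were also called as lower with no filter, with that UMI minimum and with the 2 groups alone. Pdcd1 was called as lower with no filter and with that minimum. With other size factors, or with 1 relapse-free sum left out, 0 genes were called. No relapse-free sum came from a sequencing batch with a core sum, so batch and tissue cannot be told apart in that contrast. The lowest relapse-free sum held 6913 UMIs, so low levels of a gene were not detectable in it.

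Whether the primary tumor and core differed otherwise in CD8 Lag3 than in CD8 Gzmk cells was tested as an interaction on 28 sums, 12 of CD8 Lag3 and 16 of CD8 Gzmk cells. None of 570 genes passed (0.0%, edgeR quasi-likelihood test), and 15 had an unadjusted p under 0.05. Xcl1 had an interaction log2 fold change of -5.55 with adjusted p = 0.269. No difference between primary tumor and core was thus shown to be particular to the CD8 Lag3 cells.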

How the data were processed

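Single immune cells from 148 plates were sequenced by SPID-seq, a plate method, and the authors mapped the reads with HISAT to mm10, dropped multiply mapped reads, collapsed UMIs, discarded cells under 500 UMIs and annotated the rest by MetaCell clustering with manual tuning. The labels name bcl2fastq 2.15.0.4. The deposited values were raw UMI counts per gene and well. The cell labels were used as deposited, and doublets had been excluded by sort gate. The tissue and mouse came from the sample labels, and cells were joined to counts by well identifier.

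From these, 92 spike-in rows were left out and counts were summed per mouse and tissue with 5 or more cells. edgeR 4.0.16 (R 4.3.3; TMM, filterByExpr, quasi-likelihood, Benjamini-Hochberg, threshold 0.05) was fitted over tissues with 2 or more sums, which left out the 1 distal normal sum. Shares and single markers used exact permutation tests over samples (scipy 1.17.1). Ratios to other CD8 cells used a pseudocount of 10 CPM. Pooled counts were given exact 95% Poisson intervals. On simulated counts, edgeR recovered 71.5% of genes changed by a log2 fold change of 2 and 94.5% of those changed by 4 between primary tumor and core (382 and 390 genes). Over the 4 contrasts, recovery was 66.5% to 78.5% and 90.5% to 95.5%, and 1.38% to 11.7% of calls were false, the highest for the section. Each simulation changed 200 genes, many more than were called in the data, and gave each gene the spread typical of its expression level. Its recovery thus does not give the power of contrasts in which few or no genes passed, nor that for genes more variable than this spread. Alternatives were DESeq2 1.42.0, other size factors, filters, cell and UMI minimums, the 2 groups alone and each sample left out.

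Same-mouse sums of different tissues, paired by the labels' mouse number, had a mean correlation of deviations from the tissue means of 0.182 (7 pairs, -0.14 to 0.48), against -0.02 in 68 pairs of different mice. The named genes were the 3 markers, up to 4 members of each list, the 15 highest and 10 lowest log2 ratios among counted genes with a mean of 100 CPM or more, and up to 10 called genes in each direction per contrast. Other genes were named after their values were seen. The members, gene lists and tests were chosen with earlier results of these data known.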

Additional observations from a re-analysis of the deposited data

Results flagged for a closer look

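In 6 of 21 groups of 4 to 10 samples, the highest sample lay further from its neighbor than Dixon's 95% critical value allows. That value assumes normally distributed levels, which was not tested here, and the groups shared samples, so no chance rate is given. The share of CD8 Lag3 cells among CD8 T cells of distal normal tissue was highest in mouse 26, at 27.3%, from 3 of 11 cells. Ccl4 was at 24333 CPM in the section of mouse 26, from 176 UMIs, and at 17794 CPM in the core of mouse 28, from 211 UMIs. Lag3 was at 2139 CPM in the core of mouse 34, from 11 UMIs in 7 cells. Pdcd1 was at 2167 CPM in the core of mouse 36, from 190 UMIs in 58 cells, which was the core with the most CD8 Lag3 cells. The summed cell cycle list was at 6899 CPM in the section of mouse 32, from 6 cells.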

How the results depend on the processing

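The count of genes called between primary tumor and core was 3 and became 0 with DESeq2, 5 with no filter on low counts (Gm42418, Gzmf, Bcdin3d and Ptcd2 higher, Xcl1 lower, while Tmsb10 with adjusted p = 0.120 and Gm3788 with 0.0941 were not called by edgeR), 4 with 10 or more cells per sum (Gzmc and Gzmf higher, Tcrg-C2 and Xcl1 lower, none of the 3), where 1 primary tumor and 1 margin were left and assumed to vary like the other groups, 1 with cells of at least 1000 UMIs (Xcl1, lower), 0 with the 2 groups alone, and, as alternatives chosen after seeing the data, 1 without the core of mouse 36 and 0 without that of mouse 17. With 1 primary tumor left out it was 0 to 3. The 3 without that of mouse 38 were Gm42418, Gzma and Ubash3b, and Tmsb10 (edgeR, adjusted p = 0.127) and Gm3788 (0.0947) were not called. Margin against core called 0 genes, 5 with DESeq2 and 1 with no filter, with 10 or more cells or with cells of at least 1000 UMIs. Section against core called 0, and 1 with cells of at least 1000 UMIs. Relapse-free lung against core called 0, 5 with DESeq2, 5 with no filter, 10 with cells of at least 1000 UMIs and 4 with the 2 groups alone. Ccl3 and Ccl4 were among the genes called as lower in each of these alternatives. With the mouse as a replicate block, on 8 sums of 3 mice, 0 genes were called for margin and 0 for section, and blocking the interaction gave 0 of 802, so the pairing changed no call. The shares within mice differed by 9.67 and -16.6 percentage points under the pairing, with neither called.

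The share difference between primary tumor and core was 1.82 percentage points and turned to -3.24 without the primary tumor of mouse 9, with a range of -3.24 to 5.31 over such omissions. With at least 5 CD8 T cells, distal normal tissue against section gave 13.5 percentage points (p = 0.0185, adjusted p = 0.0740, permutation test), and the samples it added held the section of mouse 26 at 77.8%. Against other CD8 cells, 54 genes counted (13 higher, 41 lower), 330 (106 and 224) in the 7 samples with 10 or more cells of each, which shared 7 higher and 22 lower genes with the first count, 14 (7 and 7) after thinning, 37 (10 and 27, all of them in the first count) with a pseudocount of 50 CPM and 39 (12 and 27, with 9 and 23 shared) against CD8 Gzmk alone. The Gzma ratio of mean levels went from -2.44 to 0.11 against CD8 Gzmk alone, with 15 of 22 samples still lower. Differences from the core in CPM that changed sign were Lag3 in the margin (-29.4 without the core of mouse 17), Pdcd1 in primary tumor (146) and margin (56.1), and Gzmb in the margin (0.725), the last 3 without the core of mouse 36. Sums held as few as 5143 UMIs, which limits what can be seen of low genes.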
